A study of Mus musculus with 11 samples.

Results

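Enzymes of gluconeogenesis and of amino acid catabolism were followed in whole kidneys of the Col4a3 knockout mouse, a model of Alport syndrome, in which the type IV collagen network of the glomerular basement membrane is lost. The 36 listed genes were looked up by symbol among the 24914 names of the deposited count files, and 26 had a row. Tdh, which encodes threonine dehydrogenase, was at 0 in 10 libraries and had 3 counts in HET PBS replicate 2, and it was not tested. The 25 others were tested, 19 of them alone and 6 in joint loci, where a neighbouring gene carried the same count in every library so that the reads cannot be assigned to either gene. Pck1, G6pc, Khk, Gatm, Glud1, Gpt, Ivd, Agxt2, Dmgdh and Shmt1 were not analysed here.

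Messenger RNA was sequenced from kidneys of 129X1/SvJ mice aged 5.5 weeks. Of 11 libraries, 4 came from Col4a3-/- mice that received antimiR-21 (called KO antimiR-21), 4 from Col4a3-/- mice that received PBS (KO PBS) and 3 from Col4a3+/- mice that received PBS (HET PBS). AntimiR-21 is an antisense oligonucleotide that blocks miR-21, a microRNA. HET PBS mice carry 1 disrupted Col4a3 allele themselves, and neither wild-type kidneys nor heterozygous kidneys given antimiR-21 were analysed here. The labels do not say whether each library came from its own animal, so p-values measure the spread between these libraries.

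The kidney is the other organ beside the liver that releases new glucose, and its proximal tubule makes it from lactate, glutamine and other amino acids. Amino acids that lose their nitrogen leave carbon skeletons that enter the citric acid cycle or become ketone bodies, while argininosuccinate synthase and lyase of the tubule turn citrulline from the gut into arginine for the body. Several of these enzymes are known to differ between male and female rodent kidneys.

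The RefSeq windows from 250 bases before to 50 bases after the annotated start (GRCm38.p6) are shown for 3 members with lower levels in libraries that hold Y-linked reads (Hpd, Bhmt and Prodh2) and for 2 with higher levels there (Haao and Aass), all of which passed the test described further on. Each is written 5′ to 3′ on the gene's own strand. Capitals mark matches, on either strand, to a core of the hepatocyte nuclear factor 1 site (GTTAAT), of the nuclear receptor site (AGGTCA), of the steroid receptor site (AGAACA) or the E-box bound by clock factors (CACGTG), and no marked match overlaps another.
Hpd (chr5:123182674-123182973, minus strand): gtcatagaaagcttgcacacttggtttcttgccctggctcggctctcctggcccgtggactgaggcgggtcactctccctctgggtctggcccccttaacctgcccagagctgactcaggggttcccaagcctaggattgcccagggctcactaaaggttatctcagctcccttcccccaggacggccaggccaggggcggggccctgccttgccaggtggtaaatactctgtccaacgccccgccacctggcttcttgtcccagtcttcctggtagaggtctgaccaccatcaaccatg
Bhmt (chr13:93637709-93638008, minus strand): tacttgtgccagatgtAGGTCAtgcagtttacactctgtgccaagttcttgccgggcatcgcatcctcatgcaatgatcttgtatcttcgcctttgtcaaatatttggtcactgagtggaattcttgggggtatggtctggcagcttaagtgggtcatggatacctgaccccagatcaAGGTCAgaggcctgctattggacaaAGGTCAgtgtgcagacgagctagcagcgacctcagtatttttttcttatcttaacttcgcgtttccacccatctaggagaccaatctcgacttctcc
Prodh2 (chr7:30493408-30493707, plus strand): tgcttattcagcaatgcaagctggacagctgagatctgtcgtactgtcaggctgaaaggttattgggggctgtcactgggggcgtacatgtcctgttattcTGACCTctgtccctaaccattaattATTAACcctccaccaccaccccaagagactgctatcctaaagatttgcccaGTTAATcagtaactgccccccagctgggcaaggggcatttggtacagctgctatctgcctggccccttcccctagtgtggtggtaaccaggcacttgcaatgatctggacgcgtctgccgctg
Haao (chr17:83846741-83847040, minus strand): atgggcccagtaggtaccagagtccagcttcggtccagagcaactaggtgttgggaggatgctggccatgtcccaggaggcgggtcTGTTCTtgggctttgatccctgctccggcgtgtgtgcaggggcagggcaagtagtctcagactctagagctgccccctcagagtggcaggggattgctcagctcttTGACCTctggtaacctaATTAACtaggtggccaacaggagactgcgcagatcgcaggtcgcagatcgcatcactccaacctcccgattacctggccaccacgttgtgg
Aass (chr6:23132937-23133236, minus strand): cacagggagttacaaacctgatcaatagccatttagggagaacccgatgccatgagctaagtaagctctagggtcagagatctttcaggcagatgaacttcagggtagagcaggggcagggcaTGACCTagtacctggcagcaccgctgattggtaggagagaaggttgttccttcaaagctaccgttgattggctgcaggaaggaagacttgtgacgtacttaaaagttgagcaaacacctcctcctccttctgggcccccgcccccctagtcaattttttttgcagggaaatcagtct
Hpd held none of the 4 motifs in this window, and Bhmt held 3 copies of AGGTCA. Prodh2 and Haao each held GTTAAT and AGGTCA, and Haao held AGAACA as well. Of the 25 tested members, 22 had such a window, and a member counted if any of its windows held the motif. Shares over all windows are per single window, so they are not on the same scale as the member counts. AGGTCA occurred in 10 of those 22 and in 16.3% of all 32851 windows, GTTAAT in 3 and in 7.1%, AGAACA in 4 and in 19%, and CACGTG in 2 (Pcx and Ass1) and in 7.15%. These are matches of letters in a window and say nothing of binding.

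The target of the treatment is shown for comparison with the 3′ UTRs, with its seed (bases 2 to 8) in capitals and its RefSeq position on chr11:86584120-86584141, minus strand (GRCm38.p6).
mmu-miR-21a-5p: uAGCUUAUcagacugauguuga
The seed pairs with ATAAGCT. None of the 25 members held that word in its longest annotated 3′ UTR (GENCODE vM21), against 7.26% of 21824 genes.

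Levels are given as CPM, in which counts are divided by the size of the library after it is scaled by a normalization factor (TMM). Group values are means ± SD, and differences are on the log2 scale with their standard error (SE). Deposited totals ran from 22.4 to 49.7 M counts per library, and from 17.9 to 39.7 M after identical names were joined. Col4a3 shares its counts with Col4a4, and the joint locus lay between 515 and 809 CPM in KO antimiR-21, between 607 and 997 CPM in KO PBS and between 870 and 1271 CPM in HET PBS, so it does not check the genotype of single libraries. Reads of the Y-linked gene Ddx3y exceeded 5 CPM in 1 of 4 KO antimiR-21, 2 of 4 KO PBS and 2 of 3 HET PBS libraries. Of 12 proximal tubule markers, 9 had a row, and their summed level was 21470 to 34711 CPM in KO antimiR-21, 17912 to 32707 CPM in KO PBS and 23484 to 40434 CPM in HET PBS. That sum includes Kap, which alone ran from 5250 to 23424 CPM. It was 26246 to 40434 CPM in libraries with Y-linked reads and 17912 to 23484 CPM in those without, so it also followed that status. The mean log2 level of the 9 markers relative to HET PBS ran from -0.21 to -0.10 in KO antimiR-21, from -0.49 to -0.18 in KO PBS and from -0.13 to 0.13 in HET PBS, so KO PBS and HET PBS did not overlap on that scale. In whole kidneys, fewer cells of a type and less RNA per cell cannot be told apart.

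Per kilobase of exon, the enzymes spanned more than 2 orders of magnitude in these kidneys. Ass1, argininosuccinate synthase, stood first with a mean over the 11 libraries of 933 CPM per kb (738.6 to 1224), followed by Fbp1, the fructose bisphosphatase of gluconeogenesis, with 871 CPM per kb (707 to 1026). Those ranges overlap widely. Hgd of tyrosine breakdown followed at 263 CPM per kb (212.0 to 303), a range that met neither of the 2 above. Aldh4a1 of the proline pathway, Aass of lysine breakdown, Bckdha, Fah and Pccb lay close together between 171 and 207 CPM per kb. Hpd had no steady place in this order, with group means of 377 CPM per kb in KO antimiR-21, 82.4 in KO PBS and 81.1 in HET PBS. At the low end, Gldc, the glycine decarboxylase, had 25.1, Gpt2, the mitochondrial alanine aminotransferase, 16.9 and Bhmt, which remethylates homocysteine with betaine, 2.56 CPM per kb. Joint loci were left out of this order. In the GENCODE vM21 annotation (GRCm38), Ass1 spans chr2:31470207-31520672 and Fbp1 chr13:62864753-62888282. Of the genes whose libraries are given one by one further on, Asl lies at chr5:130011258-130029247, Sardh at chr2:27188393-27248337, Gpt2 at chr8:85492576-85527560 and Aldh4a1 at chr4:139622866-139649690.

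**Figure D1:**
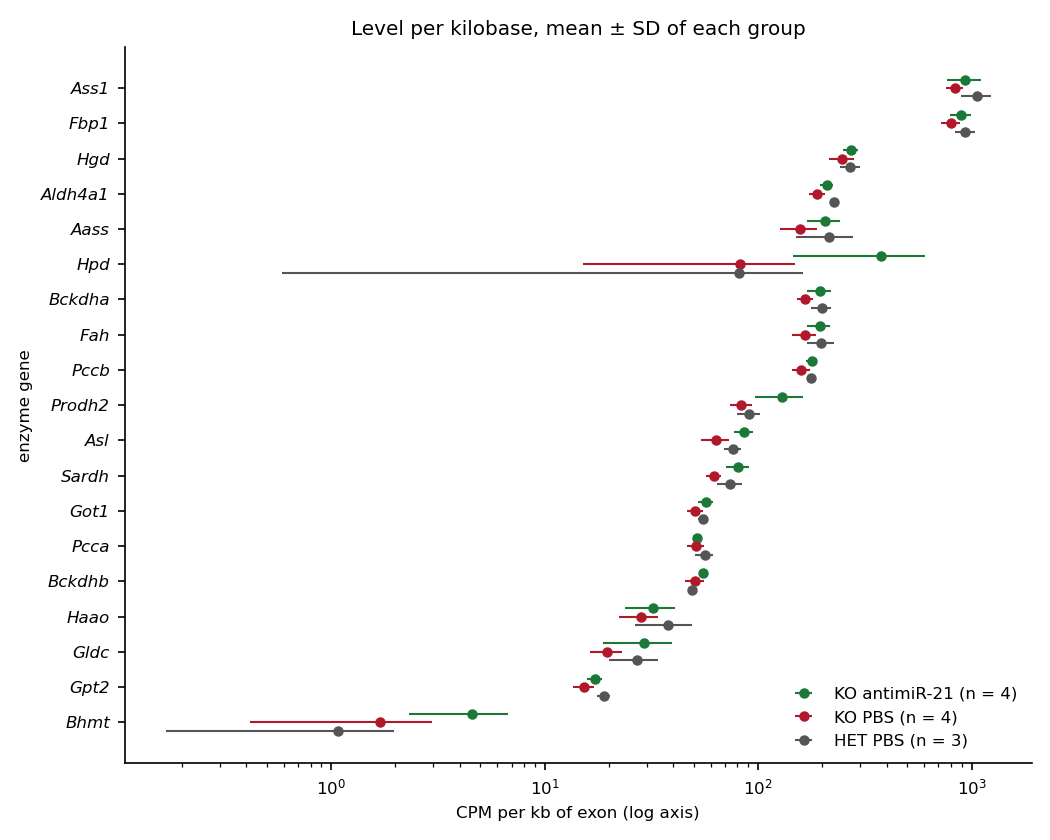
Level of 19 enzyme genes in CPM per kb of exon (log axis), as mean (points) and SD (bars) of KO antimiR-21, KO PBS and HET PBS libraries, ordered by the mean over all 11 libraries. Ass1 (933) and Fbp1 (871) lead, Bhmt (2.56) is last, and the bars of Hpd and Bhmt are the widest; on a log axis a bar reaches further to the left than to the right.

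Hpd and Bhmt varied far more between libraries than the other 23 members. The SD of log2 CPM over the 11 libraries was 1.70 for Hpd, a 29.7-fold range that 0.529% of tested loci exceeded in SD, and 1.37 for Bhmt, an 11.3-fold range that 1.07% exceeded. Pcca, Bckdhb and Pccb were the steadiest at 0.11, 0.11 and 0.12. The median SD was 0.21 for members and 0.23 for all loci.

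Most enzymes of the list stood higher in KO antimiR-21 than in KO PBS kidneys by a small amount, and none passed the test. In KO antimiR-21 against KO PBS, 24 of 25 members had a positive log2 difference, against 50.9% of all 14380 loci, and the median was 0.22 for members and 0.00 for all loci. The members were chosen with earlier results of these data known. In each comparison their shares beside those of all loci therefore describe the list and do not test it. With edgeR, 0 members and 0 loci (0%) passed at an adjusted p of 0.05, and the lowest adjusted p of a member was 0.334. At an unadjusted p under 0.05, 8 members were higher, against 4.76% of loci, and 0 were lower, against 3.46%. Negative differences made up 49.1% of loci and 1 of 25 members. DESeq2 called 79 loci higher and 47 lower, 0 of them members. When the presence of Y-linked reads was added to the fit, the median was 0.27 and 15 members were higher at an unadjusted p under 0.05, against 6.23% of loci, with 0 lower (4.85% of loci), 0 called (0% of loci) and a lowest adjusted p of 0.111. Without KO antimiR-21 replicate 4 the median of the members was 0.147 and 22 were positive. The 9 proximal tubule markers had a median difference of 0.24 in the same comparison, 6 positive and 3 negative with 0 called, and their part in the members' differences was not tested.

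Knockout kidneys given PBS had lower values than heterozygous ones for most of the list, and again none passed. In KO PBS against HET PBS, 21 of 25 members had a negative difference, against 53.5% of loci, and 4 a positive one, against 46.5%, with a median of -0.24 for members and -0.02 for all loci. By edgeR 0 members and 0 loci (0%) passed, the lowest adjusted p of a member was 0.536, and 4 members were lower at an unadjusted p under 0.05, against 2.73% of loci, and 0 higher, against 4.21%. DESeq2 called 72 loci higher and 12 lower here, 0 of them members. With Y-linked reads in the fit, 9 members were lower at an unadjusted p under 0.05, against 4.55% of loci, 0 were higher (5.23% of loci) and 0 were called (0.0209% of loci were called higher). Without HET PBS replicate 2 the median of the members was -0.151. All 9 proximal tubule markers were negative here, with a median of -0.33 and 0 called, and their part in the members' differences was not tested. The groups did not overlap for 5 members, all lower in KO PBS, against 3.21% of loci that were lower and 3.55% that were higher without overlap: Aldh4a1, Mut, Bckdha, Gpt2 and Prodh. For KO antimiR-21 against HET PBS, 14 members had a positive difference (49.5% of loci) and 11 a negative one (50.5% of loci). The median was 0.02 for members, but Hpd (2.22), Bhmt (2.09) and Prodh2 (0.51) stood further from 0. With Y-linked status as a term the median was 0.07 for members and -0.01 for all loci. In this comparison 0 members were called by edgeR or DESeq2. The 1 locus that passed in that comparison (0.00695% of loci) was Fcrls, no member of the list, named after its value was seen (log2 difference 3.84, SE 0.428, edgeR adjusted p = 0.0201). At an unadjusted p under 0.05, 4 members were higher there, against 5.04% of loci, and 0 lower, against 3.01%. Each group serves in 2 of the 3 comparisons, so these are not independent of each other.

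**Figure D2:**
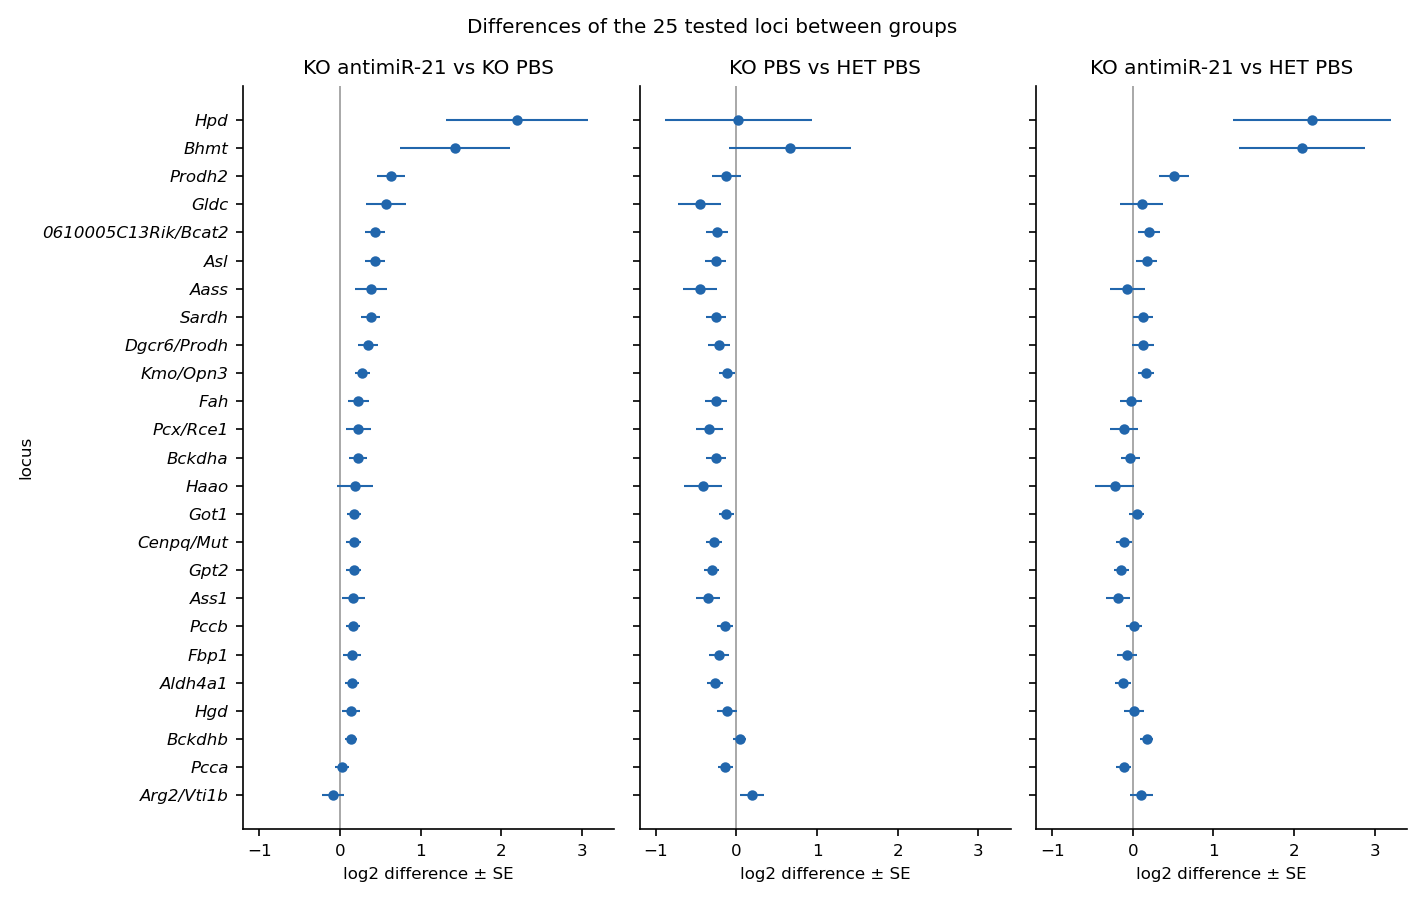
Log2 differences (points) with SE (bars) of the 25 tested loci, for KO antimiR-21 against KO PBS, KO PBS against HET PBS and KO antimiR-21 against HET PBS, in the order of the first. Points lie right of 0 for 24 loci in the first panel and left of 0 for 21 in the second, while the third is centred near 0 apart from Hpd, Bhmt and Prodh2.

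Proline and hydroxyproline are oxidised in mitochondria by related enzymes, and collagen breakdown is a main source of hydroxyproline. Prodh2, the hydroxyproline dehydrogenase, had 357, 405, 294 and 217 CPM in KO antimiR-21, 229, 223, 177 and 193 CPM in KO PBS and 256, 211 and 204 CPM in HET PBS. The KO antimiR-21 libraries without Y-linked reads (the first 3) lay above all 7 libraries of the other groups, and the one with Y-linked reads lay among them. It differed on the log2 scale by 0.63 (SE 0.172, edgeR adjusted p = 0.334) for KO antimiR-21 against KO PBS and 0.51 (SE 0.187, adjusted p = 0.574) for KO antimiR-21 against HET PBS. With Y-linked status as a term the first became 0.51 (SE 0.110, adjusted p = 0.139) and the second 0.32 (adjusted p = 0.684).

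Prodh, the proline dehydrogenase, shares a joint locus with Dgcr6. It had 511, 537, 370 and 574 CPM in KO antimiR-21, 354, 428, 402 and 382 CPM in KO PBS and 436, 496 and 435 CPM in HET PBS. KO antimiR-21 replicate 3 lay within the KO PBS range and the other 3 above it, while all KO PBS values lay below those of HET PBS. Log2 differences were 0.35 (SE 0.128, edgeR adjusted p = 0.492) for KO antimiR-21 against KO PBS and -0.22 (SE 0.138, adjusted p = 0.792) for KO PBS against HET PBS. The second was -0.14 without HET PBS replicate 2. Aldh4a1, which oxidises the product of both dehydrogenases, had 1040, 1129, 978 and 967 CPM in KO antimiR-21, 837, 1022, 962 and 892 CPM in KO PBS and 1080, 1125 and 1145 CPM in HET PBS. KO PBS lay wholly below HET PBS, with a log2 difference of -0.27 (SE 0.0967, edgeR adjusted p = 0.606), and overlapped KO antimiR-21.

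**Figure D3:**
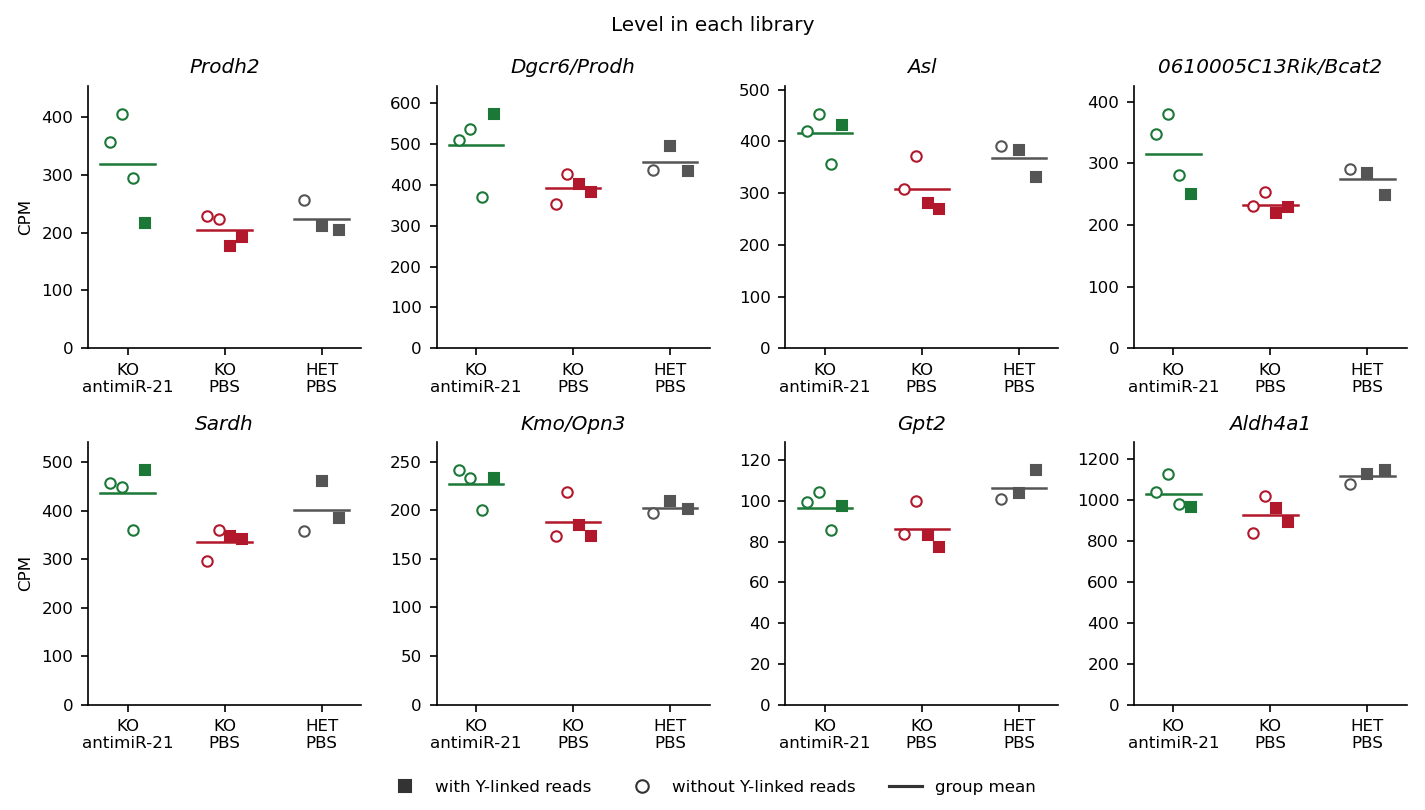
CPM of 8 loci in each library of KO antimiR-21, KO PBS and HET PBS, with group means as lines and libraries with Y-linked reads as filled squares. In the panels of Prodh2, Asl, Bcat2 and Sardh most KO antimiR-21 points lie above the KO PBS points, while Gpt2 and Aldh4a1 show KO PBS wholly below HET PBS.

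Asl, the argininosuccinate lyase that releases arginine, had 421, 453, 356 and 433 CPM in KO antimiR-21, 308, 373, 281 and 270 CPM in KO PBS and 391, 383 and 330 CPM in HET PBS. Only KO PBS replicate 2 reached into the KO antimiR-21 range. The log2 difference was 0.43 (SE 0.119, edgeR adjusted p = 0.334) for KO antimiR-21 against KO PBS and -0.26 (SE 0.127, adjusted p = 0.75) for KO PBS against HET PBS. Ass1, the enzyme before it in the pathway, had 2020, 2273, 1921 and 2820 CPM in KO antimiR-21, 1783, 2101, 2203 and 1967 CPM in KO PBS and 2149, 2955 and 2594 CPM in HET PBS. Its groups overlapped, with log2 differences of 0.17 (SE 0.140, edgeR adjusted p = 0.815) for KO antimiR-21 against KO PBS and -0.35 (SE 0.151, adjusted p = 0.689) for KO PBS against HET PBS, and the second was -0.22 without HET PBS replicate 2. Arg2, the mitochondrial arginase that splits arginine, shares a joint locus with Vti1b and was the 1 member with a negative difference under antimiR-21. It averaged 112 ± 6.53 CPM in KO antimiR-21, 119 ± 24.2 CPM in KO PBS and 104 ± 13.8 CPM in HET PBS (SD, n = 4, 4 and 3), a log2 difference of -0.09 (SE 0.133) for KO antimiR-21 against KO PBS.

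Among the 6 genes of branched-chain amino acid and propionate breakdown, all had a positive difference for KO antimiR-21 against KO PBS (median 0.16) and 5 a negative one for KO PBS against HET PBS (median -0.19). Bcat2, the mitochondrial aminotransferase of the first step, shares a joint locus with 0610005C13Rik. It had 347, 380, 281 and 249 CPM in KO antimiR-21, 230, 254, 219 and 228 CPM in KO PBS and 291, 284 and 248 CPM in HET PBS. The lowest KO antimiR-21 value and the highest KO PBS value cross by a few CPM. The log2 difference was 0.43 (SE 0.126, edgeR adjusted p = 0.37) for KO antimiR-21 against KO PBS. Bckdha and Bckdhb encode the alpha and beta subunits of the branched-chain decarboxylase. Bckdha had 376, 367, 309 and 427 CPM in KO antimiR-21, 292, 347, 330 and 297 CPM in KO PBS and 351, 425 and 356 CPM in HET PBS, with KO PBS below every HET PBS value and a log2 difference of -0.25 (SE 0.121, edgeR adjusted p = 0.737) that was -0.14 without HET PBS replicate 2. Bckdhb had 101, 95.8, 103 and 101 CPM in KO antimiR-21, 89.5, 104, 81.5 and 90 CPM in KO PBS and 89.8, 86.7 and 89.7 CPM in HET PBS. It was the 1 member for which KO antimiR-21 and HET PBS did not overlap, against 3.88% of loci that were higher and 2.1% that were lower without overlap, with a log2 difference of 0.17 (SE 0.0793, adjusted p = 0.614).

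Further down the same route, Pcca and Pccb form propionyl-CoA carboxylase, and Mut, methylmalonyl-CoA mutase, delivers succinyl-CoA to the citric acid cycle. Mut, in a joint locus with Cenpq, had 475, 482, 441 and 531 CPM in KO antimiR-21, 380, 451, 449 and 432 CPM in KO PBS and 470, 548 and 544 CPM in HET PBS. Every KO PBS value lay below every HET PBS value, and the log2 difference was -0.28 (SE 0.10, edgeR adjusted p = 0.594). Pccb averaged 493 ± 28 CPM in KO antimiR-21, 442 ± 42.8 CPM in KO PBS and 488 ± 15.5 CPM in HET PBS, and Pcca 271 ± 10.5, 266 ± 23.5 and 293 ± 28 CPM in the same groups (SD, n = 4, 4 and 3). In KO PBS, Pccb had 506 CPM in replicate 2 and 418 to 427 CPM in the others.

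Gpt2 passes nitrogen between alanine and glutamate and yields pyruvate for gluconeogenesis. It had 99.5, 104, 85.7 and 97.5 CPM in KO antimiR-21, 83.6, 100, 83.4 and 77.6 CPM in KO PBS and 101, 104 and 115 CPM in HET PBS. The highest KO PBS value lay just under the lowest HET PBS value, with a log2 difference of -0.31 (SE 0.0979, edgeR adjusted p = 0.536), the lowest adjusted p of a member in that comparison. Got1, the cytosolic aspartate aminotransferase, averaged 145 ± 12.0 CPM in KO antimiR-21, 128 ± 11.1 CPM in KO PBS and 140 ± 7.02 CPM in HET PBS. Fbp1 averaged 1517 ± 167 CPM in KO antimiR-21, 1367 ± 143 CPM in KO PBS and 1592 ± 175 CPM in HET PBS. Pcx, the pyruvate carboxylase that opens gluconeogenesis and shares a joint locus with Rce1, averaged 912 ± 146, 779 ± 118 and 983 ± 194 CPM in the same groups (SD, n = 4, 4 and 3). Differences of Got1, Fbp1 and Pcx lay within about 2 SE of 0 in all 3 comparisons in the fit of groups alone. With Y-linked status as a term, KO antimiR-21 against KO PBS gave 0.32 (SE 0.107, edgeR adjusted p = 0.261) for Pcx, 0.20 (SE 0.0755, adjusted p = 0.343) for Got1 and 0.18 (SE 0.102, adjusted p = 0.572) for Fbp1. In that fit Pcx was at -0.28 (SE 0.113, edgeR adjusted p = 0.462) for KO PBS against HET PBS.

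Of the glycine and choline genes, Sardh, the sarcosine dehydrogenase, had 457, 450, 361 and 484 CPM in KO antimiR-21, 296, 360, 349 and 342 CPM in KO PBS and 359, 462 and 385 CPM in HET PBS. It was the 1 member whose KO antimiR-21 and KO PBS values did not overlap, against 2.34% of loci that were higher and 1.95% that were lower without overlap, and the gap between 361 and 360 CPM was small. The log2 difference was 0.38 (SE 0.116, edgeR adjusted p = 0.39). Gldc, which splits glycine, had 221, 241, 128 and 119 CPM in KO antimiR-21, 113, 149, 117 and 101 CPM in KO PBS and 195, 181 and 116 CPM in HET PBS. In KO antimiR-21 its first 2 libraries were high and the others lay within the KO PBS range, for a log2 difference of 0.57 (SE 0.249, adjusted p = 0.592).

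Kmo, the kynurenine monooxygenase of tryptophan breakdown, shares a joint locus with Opn3. It had 241, 233, 200 and 233 CPM in KO antimiR-21, 174, 219, 185 and 174 CPM in KO PBS and 197, 209 and 201 CPM in HET PBS. Log2 differences were 0.27 (SE 0.0927, edgeR adjusted p = 0.458) for KO antimiR-21 against KO PBS and 0.16 (SE 0.10, adjusted p = 0.627) for KO antimiR-21 against HET PBS. Aass, which carries out the first steps of lysine breakdown, had 789, 823, 602 and 924 CPM in KO antimiR-21, 470, 554, 743 and 641 CPM in KO PBS and 578, 1068 and 819 CPM in HET PBS. Its groups overlapped in each comparison, with log2 differences of 0.38 (SE 0.200, adjusted p = 0.682) for KO antimiR-21 against KO PBS and -0.45 (SE 0.214, adjusted p = 0.737) for KO PBS against HET PBS. Without HET PBS replicate 2, its highest library, the second was -0.20.

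Hpd, the hydroxyphenylpyruvate dioxygenase of tyrosine breakdown, had 1310, 1092, 583 and 222 CPM in KO antimiR-21, 254, 337, 44.0 and 66.3 CPM in KO PBS and 368, 97.7 and 51.4 CPM in HET PBS. The lowest value of each group came from libraries with Y-linked reads, which are KO antimiR-21 replicate 4, KO PBS replicates 3 and 4 and HET PBS replicates 2 and 3. Among libraries without such reads the 3 KO antimiR-21 values (583 to 1310 CPM) lay above those of KO PBS (254 and 337 CPM) and HET PBS (368 CPM), and among libraries with them the KO antimiR-21 value (222 CPM) lay above the other 4. The log2 difference for KO antimiR-21 against KO PBS was 2.19 (SE 0.878, edgeR adjusted p = 0.557), and 1.84 (SE 0.290, adjusted p = 0.111) with Y-linked status as a term. Against HET PBS it was 2.22 (SE 0.979, adjusted p = 0.614) and, with the term, 1.47 (SE 0.326, adjusted p = 0.31), while without HET PBS replicate 1 and without the term it was 3.43. Hgd and Fah, which act after it, averaged 714 ± 58.4 and 431 ± 53.3 CPM in KO antimiR-21, 649 ± 85.8 and 368 ± 47.8 CPM in KO PBS and 706 ± 75.9 and 438 ± 63.5 CPM in HET PBS (SD, n = 4, 4 and 3).

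Bhmt showed a pattern like that of Hpd at a far lower level. It had 34.0, 34.5, 28.9 and 7.39 CPM in KO antimiR-21, 10.6, 19.8, 3.04 and 5.63 CPM in KO PBS and 12.2, 2.96 and 3.38 CPM in HET PBS. Within the libraries with and within those without Y-linked reads, KO antimiR-21 values were again the highest. The log2 difference for KO antimiR-21 against KO PBS was 1.43 (SE 0.684, edgeR adjusted p = 0.646), and 0.99 (SE 0.213, adjusted p = 0.144) with Y-linked status as a term. Against HET PBS it was 2.09 (SE 0.779, adjusted p = 0.59) and 1.37 (SE 0.246, adjusted p = 0.251) with the term. Hpd and Bhmt are known as strongly expressed in liver, and of 10 hepatocyte markers Tat was at 0 in all 11 libraries, Ahsg at 0 in 9 and Cps1 at 0 in 8, while Alb lay between 1.63 and 7.18 CPM. The 10 summed to 179 to 271 CPM in KO antimiR-21, 119 to 247 CPM in KO PBS and 140 to 209 CPM in HET PBS, mostly Ttr. Of 7 tested, 5 were positive and 2 negative for KO antimiR-21 against KO PBS (median 0.39). Against HET PBS 6 were positive and 1 negative (median 0.57), with 0 called in either. Their mean log2 level relative to HET PBS was 0.36 to 0.76 in KO antimiR-21, -0.37 to 0.90 in KO PBS and -0.22 to 0.18 in HET PBS. The part of hepatocyte markers in the result was not tested.

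Members did pass the test when libraries with and without Y-linked reads were compared. This status was set from Ddx3y (89.7 to 109 CPM in 5 libraries, at most 0.172 CPM in the other 6), since the labels give no sex. In a fit with groups and status, 1591 loci (11.1%) were higher and 985 (6.85%) lower where Y-linked reads were present, and 4 members were higher and 4 lower (edgeR, adjusted p under 0.05). The median difference was 0.06 for members and -0.02 for all loci.

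Of the members that were lower, Bhmt had 2.96 to 7.39 CPM (median 3.38) in the 5 libraries with Y-linked reads and 10.6 to 34.5 CPM (median 24.3) in the 6 without, a log2 difference of -1.94 (SE 0.197, edgeR adjusted p = 4.39e-05). Hpd had 44.0 to 222 CPM (median 66.3) with and 254 to 1310 CPM (median 476) without, a difference of -2.31 (SE 0.264, adjusted p = 0.000373). Prodh2 had 177 to 217 CPM (median 204) with and 223 to 405 CPM (median 275) without, a difference of -0.42 (SE 0.0978, adjusted p = 0.011). In these 3 the libraries with and without Y-linked reads did not overlap, against 4.14% of loci that were lower and 8.14% that were higher without overlap. The Arg2 locus had 90.8 to 109 CPM with and 105 to 147 CPM without, a difference of -0.30 (SE 0.0799, adjusted p = 0.0219), and its ranges overlapped.

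Haao, the hydroxyanthranilate dioxygenase of the route from tryptophan to NAD, had 137, 139, 119 and 209 CPM in KO antimiR-21, 107, 122, 171 and 129 CPM in KO PBS and 121, 224 and 184 CPM in HET PBS, and these groups overlapped. By Y-linked status it was the member with the largest positive difference. It had 129 to 224 CPM (median 184) in libraries with Y-linked reads and 107 to 139 CPM (median 121) in those without, a log2 difference of 0.58 (SE 0.101, edgeR adjusted p = 0.00188). Aass followed with 641 to 1068 CPM (median 819) against 470 to 823 CPM (median 590), a difference of 0.47 (SE 0.116, adjusted p = 0.0138). The Pcx locus (867 to 1191 CPM with, 659 to 987 CPM without) differed by 0.36 (SE 0.0949, adjusted p = 0.0212) and Fah (376 to 499 CPM with, 299 to 439 CPM without) by 0.26 (SE 0.0848, adjusted p = 0.0482). All 4 overlapped between the libraries with and without.

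The calls of Bhmt, Hpd and Haao held whichever library was left out and with a replicate block. That of Prodh2 was lost without KO antimiR-21 replicate 4 (-0.31, edgeR adjusted p = 0.0794) and that of Aass without HET PBS replicate 1 (0.39, adjusted p = 0.107). The Arg2 call was lost without HET PBS replicate 1 (adjusted p = 0.0941) or KO PBS replicate 3 (adjusted p = 0.0791). The Pcx call was lost without HET PBS replicate 1, HET PBS replicate 2, KO PBS replicate 1, KO PBS replicate 3 or KO antimiR-21 replicate 4 (log2 differences of 0.31 to 0.38). Fah kept its call when KO PBS replicate 2 or KO PBS replicate 4 was left out and lost it in the other 9 fits, with adjusted p between 0.0591 and 0.218. The number of members called higher was 1 without HET PBS replicate 1, 8 without KO PBS replicate 2, and 2 without HET PBS replicate 2, KO PBS replicate 1, KO PBS replicate 3 or KO antimiR-21 replicate 4. Over all loci, 1591 were called higher in the main fit, 856 without HET PBS replicate 1 and 2217 without KO PBS replicate 2. Without HET PBS replicate 2 there were 1378, without KO PBS replicate 1 1232, without KO PBS replicate 3 1092 and without KO antimiR-21 replicate 4 982. In these fits the counts of members and of all loci called higher moved in the same direction. They did not without KO antimiR-21 replicate 3, with 1600 loci and 3 members called higher. Loci called lower numbered 362 without HET PBS replicate 1, 525 without KO PBS replicate 3, 565 without KO antimiR-21 replicate 4 and 1519 without KO PBS replicate 2. With replicate number as a block, the edgeR calls of Prodh2 (-0.26, adjusted p = 0.521), Arg2 (-0.37, adjusted p = 0.285), Pcx (0.55, adjusted p = 0.0614) and Fah (0.39, adjusted p = 0.213) were lost, and Aass kept its call (0.83, adjusted p = 0.0087). Whether replicate numbers pair these libraries is not known. With DESeq2's size factors the call of Fah was lost, at an adjusted p of 0.0543.

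**Figure D4:**
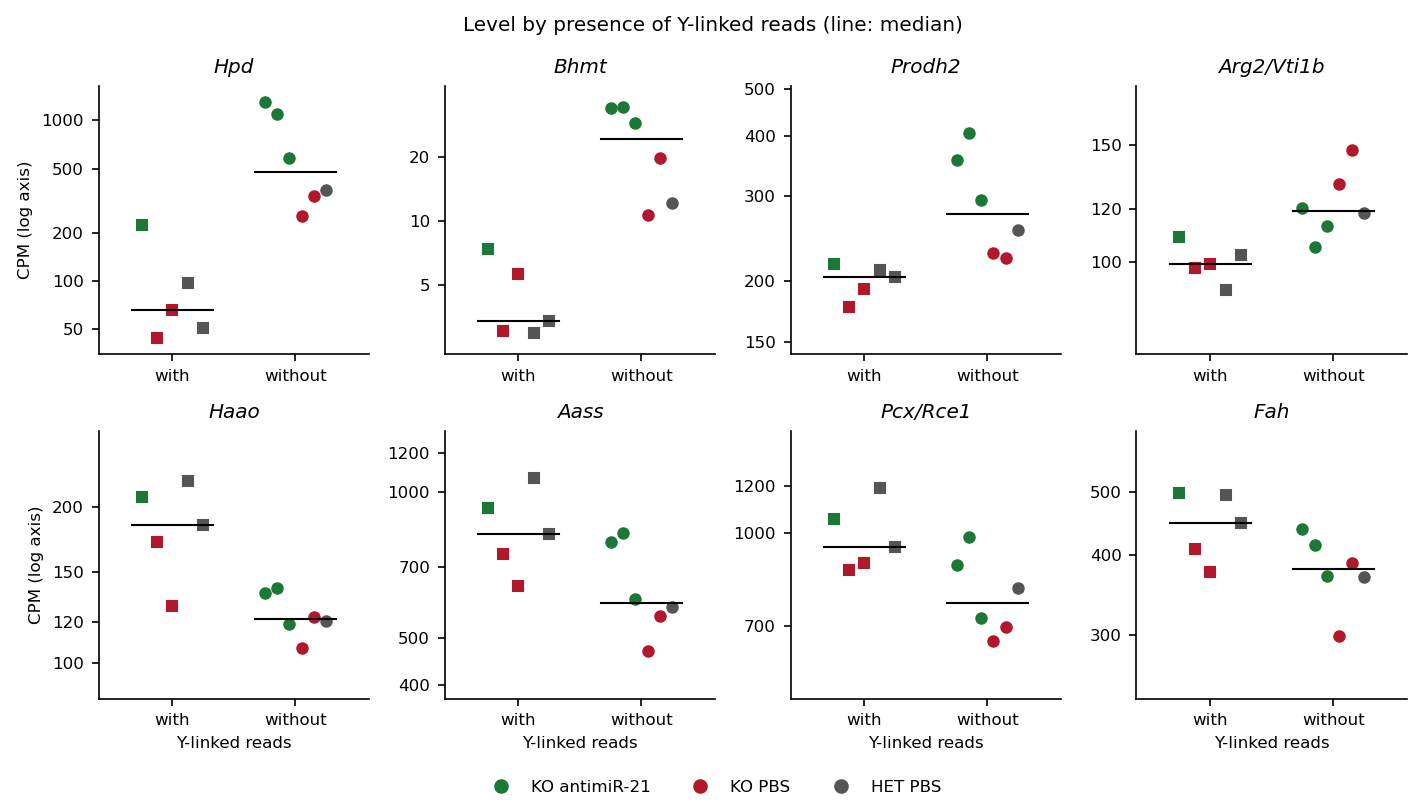
CPM (log axis) of the 8 members that passed the test, in 5 libraries with Y-linked reads (squares) and 6 without (circles), coloured by group, with the median as a line. Hpd, Bhmt and Prodh2 do not overlap between the columns, and KO antimiR-21 points are the highest of each column for Hpd and Bhmt.

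Markers of the S3 segment, the last stretch of the proximal tubule, differed by the same status: 6 of 7 had a row, 4 were positive and 2 negative where Y-linked reads were present, and 4 passed the test. Their mean log2 level relative to HET PBS ran from 0.18 to 1.05 with Y-linked reads and from -2.53 to -1.57 without. Their summed level was 1147 to 1967 CPM with and 564 to 1077 CPM without. Such a difference was not particular to S3. All 4 podocyte markers tested were negative and passed (median -0.41). Of 9 proximal tubule markers 3 were positive and 6 negative, and 3 of the 9 passed. Of 6 S1 and S2 markers 1 was positive and 5 negative, and 2 of the 6 passed. The remaining marker lists held at most 1 call each. The part of all these markers in the members' differences was not tested. Whether a difference between groups depended on this status was asked with an interaction. For KO of both treatments against HET PBS 0 members and 0 loci were called, and 0 members passed at an unadjusted p under 0.05, against 2.14% of loci. For antimiR-21 against PBS in KO, 0 members and 0 loci were called and 1 member (Arg2, a difference of differences of 0.44, SE 0.149, adjusted p = 0.322) had an unadjusted p under 0.05, against 12.6% of loci. With 5 residual degrees of freedom and 1 KO antimiR-21 library with Y-linked reads, this interaction had little precision.

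Other features of the libraries moved with the groups. The mean log2 level of the 25 members relative to HET PBS was 0.31, 0.33, 0.04 and 0.14 in the KO antimiR-21 kidneys. It was -0.23, 0.06, -0.27 and -0.27 in the KO PBS kidneys and 0.03, 0.05 and -0.09 in the HET PBS kidneys. A clock index was the mean log2 level of 6 circadian clock loci (Per2, Per3 and Tef among them) minus that of Arntl, Npas2 and Clock. In the KO antimiR-21 kidneys the index was 4.75, 4.44, 2.09 and 3.94. It was 1.84, 1.38, 1.38 and 1.43 in the KO PBS kidneys and 3.73, 4.24 and 1.51 in the HET PBS kidneys. All 4 KO PBS libraries were low, as were KO antimiR-21 replicate 3 and HET PBS replicate 3. With the index as a term, a fit chosen after the data were examined, the median of the members was 0.14 for KO antimiR-21 against KO PBS, with 23 positive and 0 at an unadjusted p under 0.05 (1.13% of loci), and -0.11 for KO PBS against HET PBS, with 19 negative and 1 at an unadjusted p under 0.05 (1.83% of loci). In that fit the differences for KO antimiR-21 against KO PBS were 0.40 for Prodh2, 0.20 for Asl, 0.19 for Bcat2, 0.18 for Sardh, 0.16 for Kmo and 0.073 for Prodh. For KO PBS against HET PBS they were -0.30 for Aass, -0.12 for Bckdha and -0.03 for Prodh. With Y-linked status added to that fit, these were -0.14, -0.071 and 0.018, so Prodh changed sign, and Ass1 was at -0.20. The hour at which kidneys were taken is not given in the labels, and the part of the clock in these differences was not tested further.

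**Figure D5:**
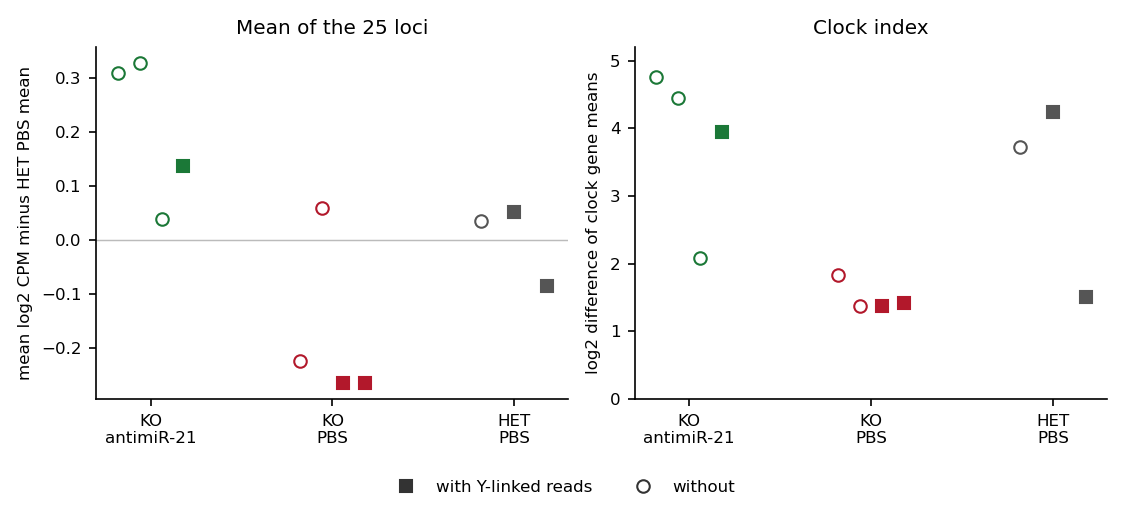
Left, mean log2 CPM of the 25 loci relative to the HET PBS mean, and right, the clock index, in each library of KO antimiR-21, KO PBS and HET PBS (filled squares mark Y-linked reads). KO PBS libraries lie between 1.38 and 1.84 in the index, and 3 of 4 KO antimiR-21 libraries lie between 3.94 and 4.75.

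Levels of tubular injury markers and of markers of other tissue also varied between libraries. The mean log2 level of 9 tubular injury markers (Havcr1 and Lcn2 among them) relative to HET PBS was 0.96 to 1.08 in KO antimiR-21, 0.89 to 2.08 in KO PBS and -0.24 to 0.37 in HET PBS. The same measure for 6 markers of the S1 and S2 segments was -0.24 to -0.08 in KO antimiR-21, -0.42 to -0.14 in KO PBS and -0.11 to 0.06 in HET PBS. Fibroblast markers were all positive for KO PBS against HET PBS (7 of 7, median 0.80), as were macrophage (6 of 6, median 0.64) and lymphocyte markers (4 of 4, median 0.99), opposite in sign to most members, with 0 called. For KO antimiR-21 against KO PBS the medians were -0.31, -0.03 and -0.38, with 3 of 7, 2 of 6 and 1 of 4 positive and 0 called. Summed levels of the fibroblast markers were 626 to 1006 CPM in KO antimiR-21, 666 to 1327 CPM in KO PBS and 390.0 to 643 CPM in HET PBS. Adipocyte markers stood more than 2 log2 units above HET PBS in KO antimiR-21 replicates 1 and 2 and KO PBS replicate 4, with Adipoq, Plin1 and Cidec at up to 4.37, 4.15 and 4.81 CPM. Without these 3 libraries, an alternative chosen after the data were examined, 23 members were positive for KO antimiR-21 against KO PBS. In that comparison the differences without these libraries were 0.27 for Prodh2, 0.29 for Asl, 0.17 for Bcat2 and 0.16 for Kmo. For KO antimiR-21 against HET PBS they were 1.21 for Hpd, 0.19 for Prodh2 and 0.10 for Kmo. The part of injury, tubule, fibroblast, immune and fat markers in the members' differences was not tested.

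The other genes of these pathways were counted from whole lists. Of 118 such enzyme genes, 93 loci were tested. For KO antimiR-21 against KO PBS 56 were positive (median 0.05), for KO PBS against HET PBS 76 were negative (median -0.14) and for KO antimiR-21 against HET PBS 66 were negative (median -0.08), with 0 called by edgeR in each. In the branched-chain list all 19 loci were negative for KO PBS against HET PBS (median -0.17), and 17 were positive for KO antimiR-21 against KO PBS (median 0.12). In the latter comparison the gluconeogenesis list had 9 of 18 positive (median 0.02) and the glutamine and proline list 5 of 12 (median -0.06). The urea cycle list had 2 of 8 (median -0.14), the glycine and serine list 14 of 23 (median 0.04) and the aromatic amino acid list 10 of 14 (median 0.15). These lists had 13, 8, 5, 21 and 11 negative loci for KO PBS against HET PBS. Of the named genes, Ppm1k, the phosphatase that activates the branched-chain decarboxylase, averaged 56.5 ± 7.64 CPM in KO antimiR-21 and 42.0 ± 3.79 CPM in KO PBS, a log2 difference of 0.43 (SE 0.102, edgeR adjusted p = 0.326). Glul, glutamine synthetase of the glutamine and proline list, averaged 1333 ± 599 CPM in KO antimiR-21 and 568 ± 129 CPM in KO PBS. Its difference was 1.23 (SE 0.333, edgeR adjusted p = 0.334), while 7 of the 12 loci of that list were negative. Dhtkd1, of lysine breakdown after Aass, averaged 182 ± 33 CPM in KO antimiR-21 and 114 ± 22.1 CPM in KO PBS, a difference of 0.68 (SE 0.179, adjusted p = 0.334).

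Ddo, which oxidises D-aspartate, averaged 51.8 ± 4.08 CPM in KO PBS and 64.0 ± 5.29 CPM in HET PBS, a log2 difference of -0.31 (SE 0.0828, edgeR adjusted p = 0.456). Among 19 loci of transporters of the tubule the median was 0.06 for KO antimiR-21 against KO PBS and -0.17 for KO PBS against HET PBS. Slc6a19, the main sodium-coupled importer of neutral amino acids, averaged 774 ± 131 CPM in KO antimiR-21 and 528 ± 75.2 CPM in KO PBS, a difference of 0.55 (SE 0.142, edgeR adjusted p = 0.334). Of 19 regulator loci 14 were positive for KO antimiR-21 against KO PBS and 17 negative for KO PBS against HET PBS, with 0 called in either. Klf15, a transcription factor that activates amino acid catabolism in liver and muscle and follows the clock, averaged 221 ± 23.0 CPM in KO antimiR-21 and 154 ± 20.8 CPM in KO PBS (joint locus, 0.52, SE 0.107, adjusted p = 0.312). The joint locus of Ppara, a nuclear receptor of fatty acid use, averaged 277 ± 48.3 and 166 ± 19.4 CPM in the same groups (0.74, SE 0.156, adjusted p = 0.312). By Y-linked status, Ccbl1, a kynurenine aminotransferase, averaged 148 ± 13.0 CPM with Y-linked reads and 82.5 ± 7.0 CPM without (0.83, SE 0.0590, adjusted p = 2.07e-06).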

How the data were processed

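Estimated counts per gene name or unnamed locus, in steps of 0.5 and not normalized, were deposited by the authors for each library, per the file headers and values. The labels' protocols give 150 ng of total RNA and the TruSeq RNA v2 kit, which does not mark strand. Per the submitters' processing notes, which list names without roles, the tools and build were mm10, STAR, HTSeq 0.5.4p5, SAMtools, FastQC and limma. A log2 expression matrix deposited by the authors served only as an alternative.

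Names with identical counts in all 11 libraries (total of at least 50) were joined, leaving 23401 loci, 1513 of them joint. Unnamed loci held 2.53% of the counts. Counts were rounded and tested two-sided with edgeR 4.0.16 in R 4.3.3 (filterByExpr, 14380 loci; TMM factors 0.917 to 1.08; robust glmQLFit over 3 groups; Benjamini-Hochberg at 0.05; biological coefficient of variation 0.215). Log2 CPM used a prior count of 2. The fit was also run on simulated counts without structure from Y-linked status, clock or tissue, and the outcome is not given here. Alternatives used DESeq2 1.42.0 and limma 3.58.1. Sequences came from RefSeq, and lengths and UTRs from GENCODE vM21.

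Members and lists were chosen with earlier results of these data known. Named members were, per comparison, the 6 with the smallest p, those past the threshold and those without overlap, and for Y-linked status up to 10 past the threshold. Of each related list, the 2 genes of smallest p could be named.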

Additional observations from a re-analysis of the deposited data

Results flagged for a closer look

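Pccb, the beta subunit of propionyl-CoA carboxylase, had 506 CPM in KO PBS replicate 2, while the other 3 KO PBS libraries lay between 418 and 427 CPM. The gap to the nearest library took 0.891 of the group's range, above Dixon's critical value for a group of 4. It was 1 of 50 groups of 4 examined, and chance marks about 1 in 20 such groups. Without that library, all 25 members were positive for KO antimiR-21 against KO PBS, and over the 11 fits that each left out 1 library the number ran from 22 (without KO antimiR-21 replicate 4) to 25.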

How the results depend on the processing

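In the 3 comparisons between groups, 0 members were called under any alternative run: other scaling, DESeq2, limma-voom, no filter, names not joined, Y-linked status as a term, the authors' log2 matrix, only the groups compared, a replicate block, each library left out, or the alternatives added later. The count of all loci did move. For KO antimiR-21 against KO PBS, DESeq2 called 79 higher and 47 lower, and the replicate block gave 18 higher and 8 lower. For KO PBS against HET PBS, DESeq2 called 72 higher and 12 lower, Y-linked status as a term 3 higher, the authors' matrix 1 higher and the replicate block 2 higher. For KO antimiR-21 against HET PBS, DESeq2 called 65 higher and 9 lower, limma-voom 0, Y-linked status as a term 2 higher, the authors' matrix 2 higher and the replicate block 3 higher and 1 lower. For Y-linked status the replicate block called 403 loci higher and 150 lower, with 2 members higher and 2 lower. Of 10 same-numbered pairs, 6 correlated above 0.1, and all correlations ran from -0.444 to 0.629. Those 6 pairs shared Y-linked status and the others differed in it. The correlations therefore cannot show whether replicate numbers pair the libraries.

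Leaving out each library in turn, loci called higher ran from 0 to 16 for KO antimiR-21 against KO PBS (16 without KO antimiR-21 replicate 3), from 0 to 2 for KO PBS against HET PBS and from 0 (without any 1 of the 3 HET PBS libraries, KO PBS replicate 2 or KO antimiR-21 replicate 1, 2 or 3) to 4 (without KO PBS replicate 1) for KO antimiR-21 against HET PBS. For Y-linked status they ran from 856 to 2217 higher and from 362 to 1519 lower, with 1 to 8 members higher. Members with a positive difference for KO PBS against HET PBS ran from 2 to 4. Of the alternatives added after the data were examined, leaving out the 3 libraries of high adipocyte markers gave 0 loci higher for KO antimiR-21 against HET PBS and turned Bcat2 to -0.047 there, where its main difference was 0.20. The clock index as a term also gave 0 loci. Clock index and Y-linked status together gave 3 loci higher for KO antimiR-21 against HET PBS, 1 for KO PBS against HET PBS, a member median of -0.084 there and 0.018 for Prodh. The cause was not tested. With 3 or 4 libraries a group, the number of libraries limits the precision.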
